A study of Homo sapiens with 32 samples.

Results

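The 10 genes described here are the 3 members of the IGF2BP family (IGF2BP1, IGF2BP2 and IGF2BP3) and 7 growth-related mRNAs that are known as their targets (HMGA1, HMGA2, LIN28B, MYC, CD44, CCND1 and IGF2). They were chosen by gene symbol, and each symbol matched an identifier among the 60660 in the count table. RNA of HCT116 cells, an established line of human colorectal carcinoma, was sequenced after poly(A) selection in 32 libraries. All cells carried a doxycycline-inducible OsTIR1 (Tet-OsTIR1-PURO), so this background was shared by the controls. The parental cells gave 4 libraries in DMSO and 4 in tunicamycin, as 2 samples with 2 libraries each. IGF2BP3 knockout clones A3, D12 and E4 and IGF2BP2 knockout clones B7, F6 and G6 gave 6 libraries per genotype and treatment, 2 for each clone. The clones were sorted as single cells after transient transfection with a Cas9-GFP plasmid. Parental cells and IGF2BP3 knockout clones received 5 µg/mL tunicamycin, an inhibitor of N-glycosylation, for 4 h, or DMSO. For B7, F6 and G6 the sources used here state neither concentration nor duration. The control libraries of clone G6 are titled as control while 1 of their labels says tunicamycin. They were placed by title, and DDIT3, a stress transcript, lay between 1.98 and 2.94 CPM in all 6 DMSO libraries of the IGF2BP2 knockouts and between 175 and 250 CPM in the 6 tunicamycin libraries.

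IGF2BP proteins are RNA-binding proteins with RRM and KH domains that bind mRNAs in the cytoplasm and affect their stability, location and translation. IGF2BP1 and IGF2BP3 are high in the embryo, low in most adult tissues and often expressed again in tumours, while IGF2BP2 is expressed more widely. HMGA2 and LIN28B, together with IGF2BP family members, are classic oncofetal mRNAs that the let-7 microRNAs repress through sites in the 3′ untranslated region (3′ UTR).

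The guide sequences define which part of each family gene was cut, and they differ between clones, so they are shown with the adjacent NGG motif in capitals. Positions are on GRCh38 with GENCODE 29 exons, and all 4 guides match the genome's plus strand, which is antisense to both transcripts.
IGF2BP3, clones E4 and A3: tggcaccgactgatagagctGGG
IGF2BP3, clone D12: acgcgtagccagtcttcaccAGG
IGF2BP2, clones F6 and B7: gagctgccggaggtcgtcggCGG
IGF2BP2, clone G6: aggcgtagccggacttcagcAGG
The guide of clones E4 and A3 lies at chr7:23319200-23319219, in coding exon 11 of 15, and its cut falls at codon 414 of 579, after 71.5% of the coding sequence. The guide of clone D12 lies at chr7:23469990-23470009 in exon 1, with the cut at codon 35, after 6.04% of the coding sequence. Both IGF2BP2 guides lie in exon 1 of 16: that of F6 and B7 at chr3:185824895-185824914 cuts at codon 17 of 599, and that of G6 at chr3:185824837-185824856 cuts at codon 36. The guides of D12 and G6 lie at the matching place of the 2 paralogs. Counted from 1 at the 5′ end of the D12 guide, the IGF2BP2 site differs by C2G, A11G, T13A and C19G. The closest sites to the E4 and A3 guide with an NGG motif in the spliced family mRNAs differ at 7 positions in IGF2BP1 and 8 in IGF2BP2.

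The seed of let-7 and its matches in HMGA2 are shown because HMGA2 is the target mRNA whose level differed between the genotypes. The seed (bases 2 to 8) is in capitals in the mature microRNA, and the match CTACCTC is in capitals in the sites, all from the transcript strand.
hsa-let-7a-5p: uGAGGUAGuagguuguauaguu
HMGA2 chr12:65963299-65963320: ccaacgttcgatttCTACCTCa
HMGA2 chr12:65964534-65964555: cccactactcaataCTACCTCt
HMGA2 chr12:65964946-65964967: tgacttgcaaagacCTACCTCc
HMGA2 chr12:65965799-65965820: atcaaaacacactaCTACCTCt
The mature sequences come from RefSeq and 9 microRNAs of the table share this seed. The HMGA2 matches begin 21, 1256, 1668 and 2521 bases after the stop codon of a 3′ UTR of 3003 bases. Of 2850 other 3′ UTRs at least as long, searched over the same length, 16.8% held a match and none held more than 3. LIN28B and IGF2BP1 also held 4 matches each, in longer UTRs, and IGF2BP2, IGF2BP3 and HMGA1 held 1 each. CD44, CCND1 and IGF2 held 0, where 17.0%, 17.3% and 20.1% of other UTRs of their length held at least 1. The transcript selected for MYC had no annotated 3′ UTR and was not searched. A match is a stretch of letters and not a measured site, and no microRNA was measured.

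**Figure D1:**
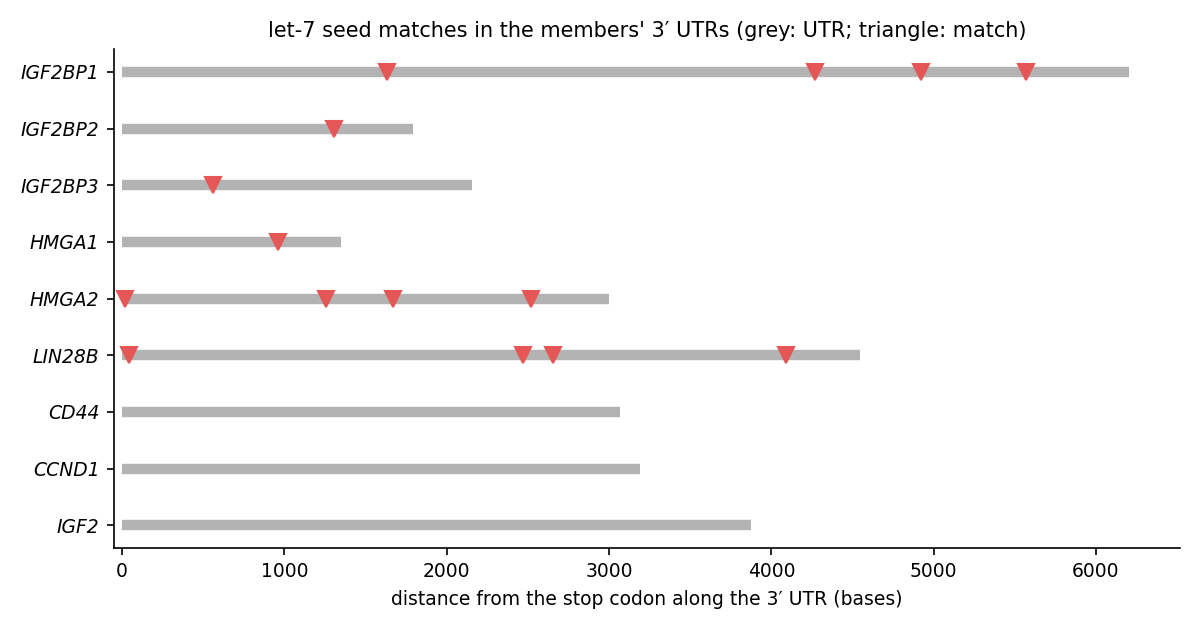
Each grey bar is the 3′ UTR of 1 member, drawn to scale in bases from the stop codon (x axis), and each triangle is a match to the let-7 seed. HMGA2, LIN28B and IGF2BP1 have 4 matches each, while CD44, CCND1 and IGF2 have none.

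Library totals were 16651438 to 24913021 counts (median 21441776). Levels are given as CPM, counts scaled to library size, with TMM normalisation over all 32 libraries. The summed level of 5 colon epithelial markers was 2330 to 4030 CPM, that of 3 fibroblast markers 4.7 to 12.2 CPM, and those of 2 leukocyte and 2 endothelial markers at most 0.0954 and 0.155 CPM. The labels number the libraries of each line 1 and 2, and this number moved several members in the same direction throughout. The level in library 2 was lower than in library 1 in 16 of 16 pairs for MYC (median log2 difference -0.37), HMGA1, CD44, CCND1 and IGF2BP2, in 10 of 16 for IGF2BP3 and in 2 of 16 for HMGA2. Values within a number are given beside the results that change with it. In bulk RNA, a change in the number of expressing cells and a change in RNA per cell cannot be told apart.

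Per kilobase of exon, HMGA1 was the most abundant member in parental DMSO cells at 825 CPM per kilobase, followed by CCND1 at 238 and MYC at 188. CD44 stood at 45.9, IGF2BP2 at 37.2, HMGA2 at 29.8 and IGF2BP3 at 9.01 CPM per kilobase. The length used joins the exons of all annotated transcripts of a gene, 15403 bases for HMGA2 and 10004 for CD44. It can exceed the length of the mRNA that is expressed, so the order of members depends on it. Before division by length, HMGA2 and CD44 were both at 459 CPM and IGF2BP2 at 176 CPM. HMGA1 and HMGA2 are architectural chromatin proteins, CCND1 is cyclin D1, MYC a transcription factor and CD44 a cell surface receptor for hyaluronan. IGF2, the growth factor that gave the family its name, was at 0.106, IGF2BP1 at 0.0475 and LIN28B, an inhibitor of let-7 maturation, at 0.0132 CPM per kilobase. All libraries together held 372 counts for IGF2, 271 for IGF2BP1 and 60 for LIN28B, and LIN28B had no count in 11 libraries. A library's limit for a count of 0 is 3 counts, for instance 0.128 CPM in parental sample 1, library 1, so differences in LIN28B were not detectable at this depth. HMGA1 has processed copies elsewhere in the genome, and IGF2 overlaps INS-IGF2, so their counts are uncertain where reads could be split.

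The targeted genes were examined first. IGF2BP3 mRNA remained present but was lower in the IGF2BP3 knockout clones. In DMSO it stood at 82.3, 71.4, 83.6 and 69.6 CPM in the parental libraries, and ranged from 18.8 to 41.5 CPM (median 22.2) in the 6 knockout libraries. The groups did not overlap, as for 2.25% of all genes in the lower direction. Clones A3 and E4, which share a guide, were at 18.8 and 23.8 CPM and at 19.8 and 20.6 CPM, while D12 was at 41.4 and 41.5 CPM. The mean of 27.7 ± 10.8 (SD, n = 6) stood against 76.7 ± 7.22 CPM (SD, n = 4) in parental cells, and the log2 fold change was -1.48 ± 0.20 (SE; edgeR adjusted p = 0.00251). In tunicamycin the knockout libraries spanned 19.5 to 50.5 CPM (median 27.6) and the parental libraries 69.9 to 74.8 CPM, again without overlap (1.89% of genes). That difference was -1.16 ± 0.24 (edgeR adjusted p = 0.0439). The call in DMSO was lost without parental sample 1, without parental sample 2, without parental libraries numbered 1, with libraries numbered 2 alone (adjusted p = 0.116) and with counts summed per line (adjusted p = 0.0512). In tunicamycin it was lost under 10 of 16 alternatives, with a highest adjusted p of 0.516. All log2 values remained negative, from -1.88 to -1.30 in DMSO and from -1.58 to -0.97 in tunicamycin.

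The 3 IGF2BP3 knockout clones differed among themselves in IGF2BP3, with a largest log2 difference between lines of 1.06 (edgeR adjusted p = 3.53e-05). The mean over the 4 libraries of a clone was 45.1 ± 4.43 CPM (SD) in D12, 23.1 ± 5.2 in A3 and 21.7 ± 2.38 in E4. Gene-level counts cover the whole transcript, so they do not show whether the reading frame was interrupted, and protein was not measured.

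IGF2BP2 mRNA was lower in all IGF2BP2 knockout clones and remained present. It ranged in DMSO from 80.8 to 93.7 CPM (median 87.4) in the 6 knockout libraries and stood at 190, 161, 197 and 158 CPM in the parental ones. The groups did not overlap, which 0.494% of genes showed in this direction. The means were 86.9 ± 5.33 (SD, n = 6) and 176 ± 19.9 CPM (SD, n = 4), and the log2 fold change was -1.02 ± 0.06 (edgeR adjusted p = 1.39e-05). In tunicamycin the knockout libraries spanned 100 to 114 CPM and the parental libraries 183 to 205 CPM, again without overlap (0.811% of genes), with a log2 fold change of -0.86 ± 0.05 (edgeR adjusted p = 1.48e-05). This call in tunicamycin was lost with libraries numbered 1 alone, with libraries numbered 2 alone and with counts summed per line (highest adjusted p = 0.0732).

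Neither knockout was accompanied by a called difference in the other expressed paralog. IGF2BP2 in the IGF2BP3 knockout clones was 168 ± 13.8 CPM in DMSO, with a log2 fold change of -0.08 and a 95% interval of -0.21 to 0.06 (edgeR adjusted p = 0.672). In tunicamycin it was -0.15, from -0.26 to -0.03 (edgeR adjusted p = 0.338), and within each library number all 3 clones lay below both parental samples, as for 4.77% of all genes. IGF2BP3 in the IGF2BP2 knockout clones was 76.8 ± 15.2 CPM in DMSO against 76.7 CPM in parental cells, with an interval of -0.27 to 0.26. Clone G6 stood apart there, at 102 and 88.1 CPM, while B7 was at 70.8 and 62 CPM and F6 at 72.7 and 65.2 CPM. The difference between these clones was 0.55 on the log2 scale (edgeR adjusted p = 9.98e-06). IGF2BP1 ranged over groups from 0.31 to 0.488 CPM and was not called in any comparison in which it could be tested.

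**Figure D2:**
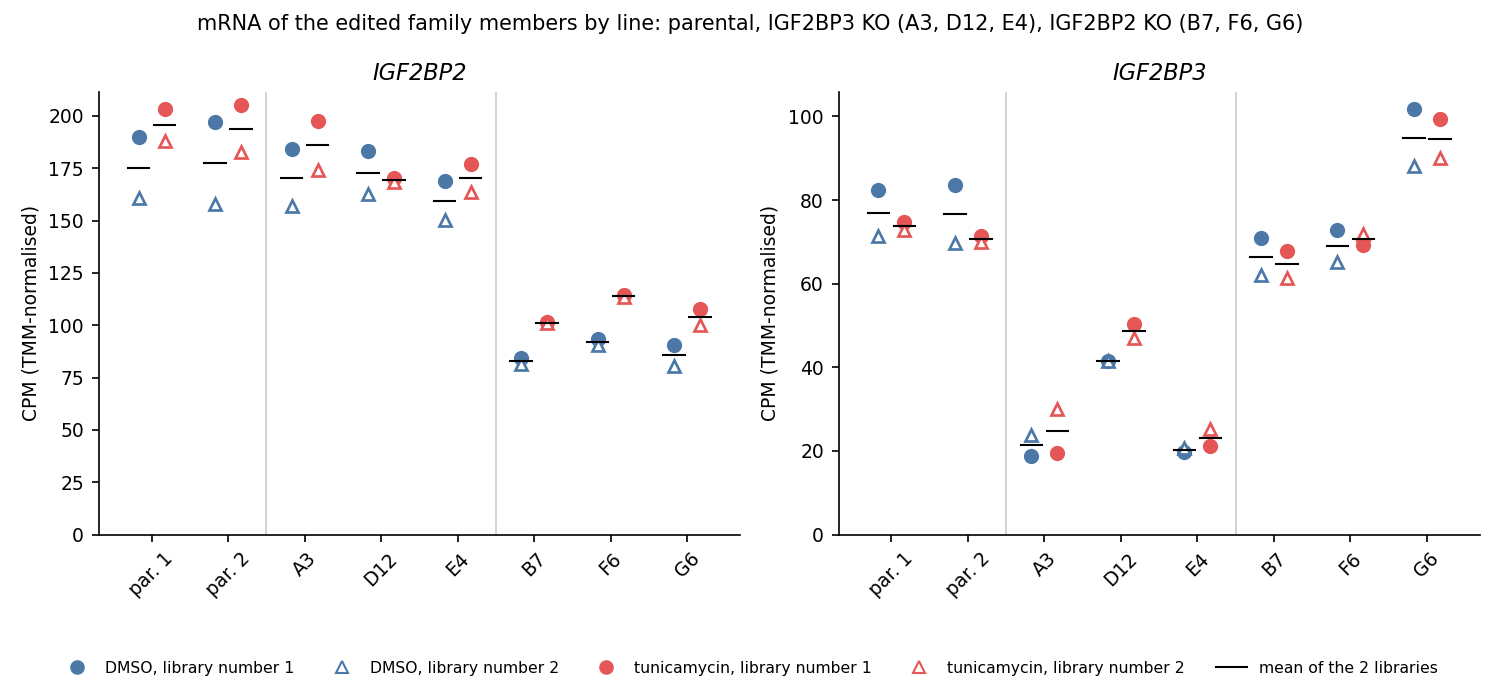
CPM (y axis, from 0) of the edited family members in each line (x axis), with 1 symbol per library, circles for library number 1, triangles for number 2, blue for DMSO, red for tunicamycin, and bars for the mean of the 2 libraries. IGF2BP3 in A3 and E4 lies between 18.8 and 30.1 CPM and in D12 between 41.4 and 50.5 CPM, while IGF2BP2 is lower in B7, F6 and G6.

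HMGA2 was the only target mRNA called between IGF2BP3 knockout and parental cells in DMSO. The 4 parental libraries stood at 458, 457, 456 and 465 CPM. Clone A3 was at 303 and 366 CPM, D12 at 282 and 324 CPM, and E4 at 311 and 318 CPM. The highest knockout library lay well below the lowest parental library, so the groups did not overlap, as for 2.25% of all genes in this direction, and the clones made with different guides were alike in this respect. The mean in knockout clones was 317 ± 27.8 (SD, n = 6) against 459 ± 4.18 CPM (SD, n = 4), or 69.1% of the parental mean. The log2 fold change was -0.53 ± 0.07 (edgeR adjusted p = 0.00171). Together with IGF2BP3 itself, this made 2 of 9 tested members called, both lower, where 1.61% of the 14568 genes tested were called in either direction and 1.10% were called lower. IGF2BP3 is the gene edited in these clones, and of the 6 tested target mRNAs 1 was called.

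The HMGA2 difference was present in both library numbers, at -0.61 on the log2 scale among libraries numbered 1 (edgeR adjusted p = 0.00215) and -0.47 among those numbered 2 (edgeR adjusted p = 0.0579). Leaving out parental sample 1 or 2 gave adjusted p-values of 0.0538 and 0.0535 at log2 fold changes of -0.54 and -0.53. With the counts of each line summed, so that a clone counts once, the value was -0.54 (edgeR adjusted p = 0.00534). The 3 clones did not differ among themselves beyond their spread (largest log2 difference 0.13, edgeR adjusted p = 0.804). This stands beside a difference of 1.06 between the same clones in IGF2BP3 mRNA.

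In tunicamycin, HMGA2 ranged from 226 to 332 CPM (median 261) in the IGF2BP3 knockout libraries and stood at 357, 393, 358 and 382 CPM in the parental libraries. The groups again did not overlap (1.89% of genes). Of 9 tested members 1 was called, the edited gene IGF2BP3, where 0.718% of genes were, and of the 6 tested target mRNAs 0 were. The log2 fold change of HMGA2, -0.46 ± 0.11, missed the threshold (edgeR adjusted p = 0.0916). It passed under 7 of 16 alternatives, among them the fit over all 32 libraries (adjusted p = 0.00304), DESeq2 (adjusted p = 0.00613), summed counts (adjusted p = 0.0248) and leaving out clone A3 (adjusted p = 0.0445), and missed under the other 9, with a highest adjusted p of 0.578 without parental sample 1. Within library numbers the values were -0.61 (adjusted p = 0.00897) and -0.34 (adjusted p = 0.212). The difference between the 2 treatments in this effect was 0.08 with an interval of -0.20 to 0.36, so the effects in DMSO and tunicamycin were not shown to differ.

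HMGA2 was not lower in the IGF2BP2 knockout clones. In DMSO clone B7 was at 474 and 475 CPM, F6 at 538 and 525 CPM, and G6 at 444 and 473 CPM. These libraries lay around and above the parental ones, and the log2 fold change was 0.09 with a 95% interval of -0.05 to 0.22 (edgeR adjusted p = 0.983). In tunicamycin it was 0.11, from -0.02 to 0.24 (edgeR adjusted p = 0.695). In each treatment 1 of 8 tested members was called, the edited gene IGF2BP2, where 0.0137% of genes were called in DMSO and 0.00694% in tunicamycin. Of the 6 tested target mRNAs 0 were called in either treatment.

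Set directly against each other, the knockout genotypes differed in HMGA2. It was lower in the IGF2BP3 than in the IGF2BP2 knockout clones by -0.62 ± 0.07 on the log2 scale in DMSO (edgeR adjusted p = 0.00201) and by -0.57 ± 0.09 in tunicamycin (edgeR adjusted p = 0.017), with no overlap between the groups in either treatment (0.723% and 0.739% of genes). Beside the edited genes, HMGA2 was the only other member called, so 3 of 8 tested members were called in DMSO and 3 of 7 in tunicamycin, where 0.589% and 0.391% of genes were. Of the target mRNAs alone, 1 of 6 tested in DMSO and 1 of 5 in tunicamycin was called. With the counts of each line summed, the adjusted p-values were 0.106 and 0.111. The values within library numbers 1 and 2 were -0.70 and -0.55 in DMSO (adjusted p = 0.114 and 0.284), and -0.75 and -0.43 in tunicamycin (adjusted p = 0.013 and 0.603). In tunicamycin the call was also lost without D12, E4 or B7 (adjusted p = 0.0641, 0.0779 and 0.068).

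**Figure D3:**
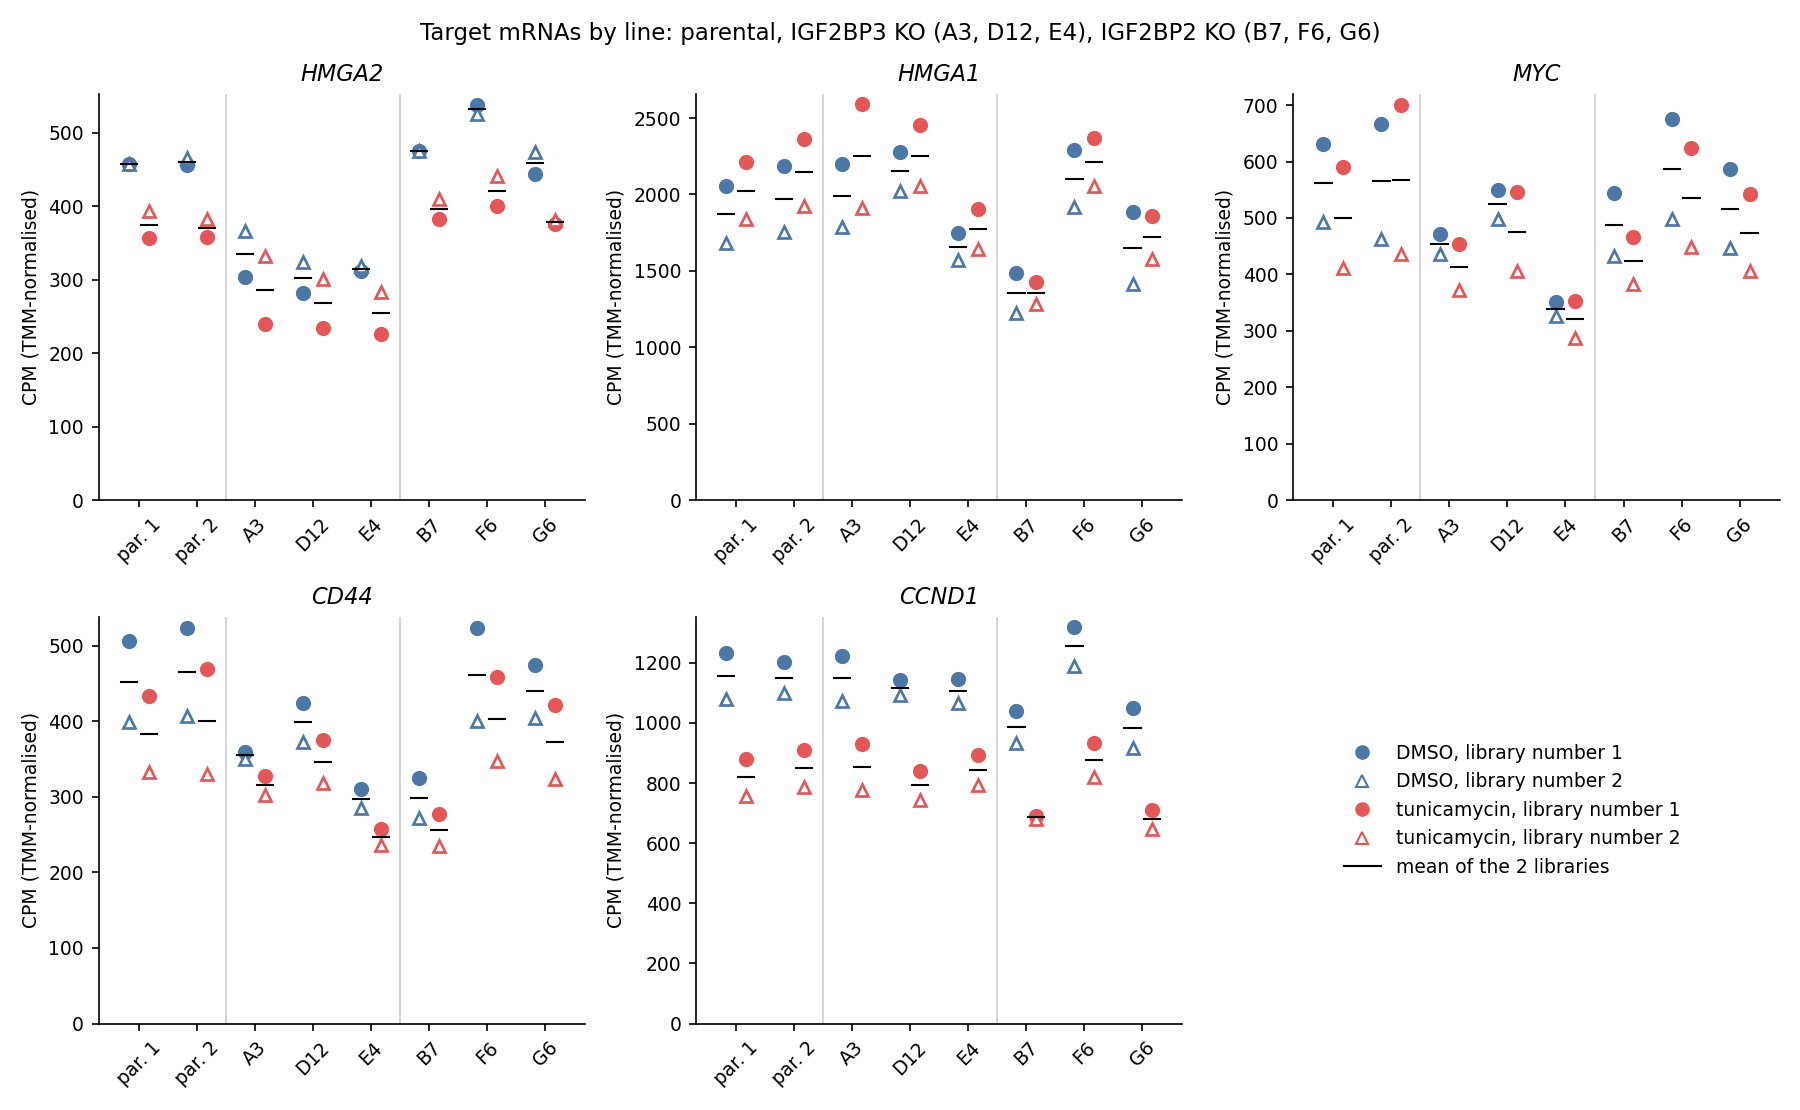
CPM (y axis, from 0) of the expressed target mRNAs in each line (x axis), with 1 symbol per library, circles for library number 1, triangles for number 2, blue for DMSO, red for tunicamycin, and bars for the mean of the 2 libraries. HMGA2 is lower in A3, D12 and E4 than in parental cells, MYC and CD44 are lowest in single clones (E4, and E4 and B7), and CCND1 is lower in tunicamycin in every line.

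CD44 and MYC had lower means in the IGF2BP3 knockout clones but did not pass the test. CD44 stood in DMSO at 506, 398, 523 and 407 CPM in the parental libraries and ranged from 285 to 424 CPM in the knockout libraries. The groups overlapped across library numbers, but within each number all 3 clones lay below both parental samples, in DMSO and in tunicamycin. Not overlapping within both numbers in the lower direction was found for 4.86% of genes in DMSO and 4.77% in tunicamycin. The log2 fold change was -0.39 ± 0.09 in DMSO (edgeR adjusted p = 0.0539) and -0.36 ± 0.13 in tunicamycin (edgeR adjusted p = 0.307). In DMSO it passed under 6 of 16 alternatives, among them DESeq2 (adjusted p = 0.00388), a minimum mean of 1 CPM (adjusted p = 0.0468), leaving out D12 (adjusted p = 0.0198) and leaving out parental libraries numbered 2 (adjusted p = 0.0273), and it missed with a highest adjusted p of 0.595. The clones differed in CD44 by up to 0.46 (edgeR adjusted p = 0.000556), with means over 4 libraries of 272 ± 32.2 CPM in E4, 335 ± 25.6 in A3 and 372 ± 43.4 in D12.

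MYC ranged in DMSO from 326 to 550 CPM (median 453) in the IGF2BP3 knockout libraries and stood at 631, 493, 667 and 462 CPM in the parental libraries. These groups overlapped. Within both library numbers in tunicamycin all 3 clones lay below both parental samples, as for 4.77% of all genes. In DMSO this held within number 1 and not within number 2, and the share of all genes for a single number was not computed. The log2 fold change was -0.36 ± 0.13 in DMSO (edgeR adjusted p = 0.211) and -0.40 ± 0.17 in tunicamycin (edgeR adjusted p = 0.431). Without a filter on low counts MYC was called in DMSO (-0.36, edgeR adjusted p = 0.00175). In DMSO the ratio of means was -0.50 on the log2 scale among libraries numbered 1 and -0.19 among those numbered 2. Clone E4 was lowest, with 352 and 326 CPM, and leaving it out gave -0.21 (adjusted p = 0.388). The clones differed in MYC by up to 0.61 (edgeR adjusted p = 0.00154). Within the IGF2BP2 knockouts, MYC had log2 fold changes against parental cells of -0.09 in DMSO and -0.14 in tunicamycin, with intervals of -0.36 to 0.18 and -0.48 to 0.19.

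CCND1 and HMGA1 were not called between any genotypes in the main fits. In DMSO CCND1 was 1150 ± 76.1 CPM in parental cells, 1120 ± 59.1 in IGF2BP3 knockout and 1070 ± 155 in IGF2BP2 knockout clones. HMGA1 was 1920 ± 241, 1930 ± 277 and 1700 ± 395 CPM in the same order. The 95% intervals of the log2 difference from parental cells were -0.14 to 0.06 and -0.30 to 0.09 for CCND1, and -0.19 to 0.21 and -0.49 to 0.14 for HMGA1. In tunicamycin they were -0.14 to 0.14 and -0.35 to 0.06 for CCND1, and -0.23 to 0.25 and -0.55 to 0.09 for HMGA1. Without clone F6, CCND1 was called higher in the IGF2BP3 than in the IGF2BP2 knockout clones in tunicamycin (edgeR adjusted p = 0.0414). These intervals do not exclude differences within their bounds. IGF2 lay between 0.434 and 0.739 CPM in all 6 groups, and its interval in the IGF2BP3 knockout clones in DMSO was -0.87 to 0.34.

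**Figure D4:**
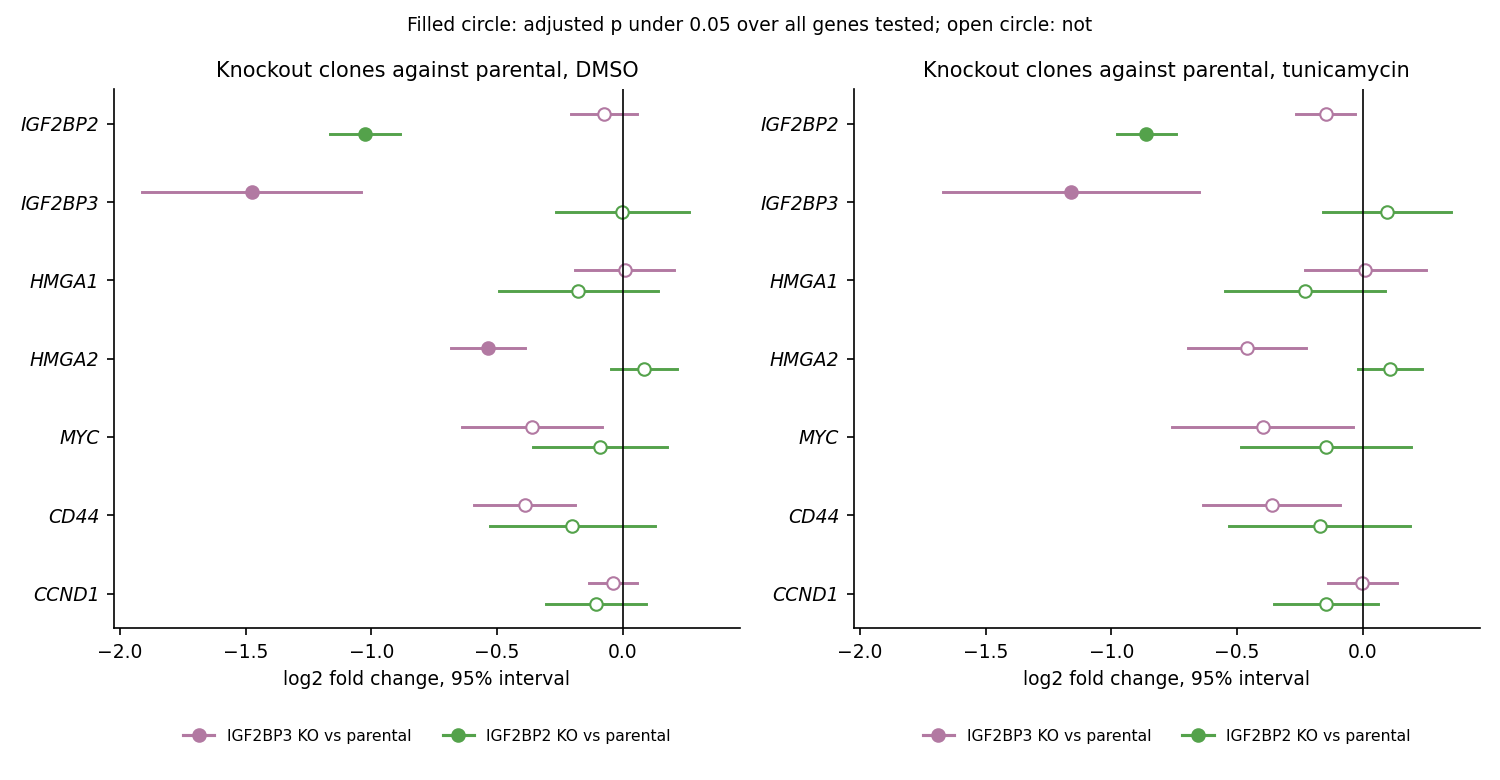
Log2 fold changes of the 7 expressed members (x axis) in IGF2BP3 (purple) and IGF2BP2 (green) knockout clones against the shared parental libraries, in DMSO (left) and tunicamycin (right), with 95% intervals and filled circles for adjusted p under 0.05. Beside the edited genes, the filled circle is HMGA2 in the IGF2BP3 knockout clones in DMSO, at -0.53.

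Clones of 1 genotype differed from each other in several members. Among IGF2BP3 knockout clones 4 of 9 tested members were called (IGF2BP3, MYC, CD44 and HMGA1), where 7.05% of genes were. Among IGF2BP2 knockout clones 7 of 8 were called, where 24.6% of genes were, with largest differences of 0.68 for HMGA1, 0.65 for CD44, 0.36 for CCND1 and 0.17 for HMGA2. Clone F6 had the highest means of HMGA1 and CD44, at 2160 ± 209 and 432 ± 75.6 CPM, and B7 the lowest, at 1350 ± 122 and 277 ± 36.9 CPM (SD, 4 libraries). With D12 or E4 left out, 2 and 1 members were called among the remaining IGF2BP3 knockout clones, and with B7 or F6 left out, 3 were called among the remaining IGF2BP2 knockout clones. Over all genes, calls fell as well, from 1062 to 196 without E4 and from 3683 to 1550 without B7. Between the 2 parental samples 0 of 9 members were called by edgeR, where 0.00% of genes were. None had an unadjusted p under 0.05, against 253 of 14828 genes at that level. Libraries of 1 clone are not independent clones, and the fits between genotypes count each library, although only 3 clones and 2 parental samples, which serve both knockouts, stand behind them. With summed counts each line counts once. There the calls against parental cells of IGF2BP3 in DMSO (edgeR adjusted p = 0.0512) and in tunicamycin were lost. The call of IGF2BP2 in the IGF2BP2 knockout clones in tunicamycin was lost too. Between the knockouts, those of IGF2BP3 and of HMGA2 (edgeR adjusted p = 0.106 and 0.111) were lost in both treatments.

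CCND1 was lower in tunicamycin than in DMSO in every genotype. In parental cells CCND1 stood at 1230, 1080, 1200 and 1100 CPM in DMSO and at 880, 758, 909 and 788 CPM in tunicamycin, without overlap (15.2% of genes in this direction). In the IGF2BP3 knockout clones it ranged from 1060 to 1220 CPM in DMSO and from 745 to 931 CPM in tunicamycin, also without overlap (8.48% of genes). In the IGF2BP2 knockout clones the ranges of 917 to 1320 and 648 to 932 CPM overlapped through clone F6, whose libraries fell from 1320 and 1190 to 932 and 820 CPM. The log2 fold changes were -0.46 ± 0.06 in parental cells (edgeR adjusted p = 0.000427), -0.43 ± 0.05 in IGF2BP3 knockout (adjusted p = 1.3e-05) and -0.50 ± 0.04 in IGF2BP2 knockout clones (adjusted p = 3.9e-07). The parental call was lost without parental sample 1 (adjusted p = 0.0682).

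HMGA2 was also lower in tunicamycin, by -0.30 ± 0.06 in parental cells (edgeR adjusted p = 0.00392) and -0.27 ± 0.04 in IGF2BP2 knockout clones (edgeR adjusted p = 5.65e-05). In the IGF2BP2 knockout clones the libraries of both treatments did not overlap, as for 8.70% of genes. In the IGF2BP3 knockout clones the value was -0.23 ± 0.10 (edgeR adjusted p = 0.0937), although it was negative in both libraries of every clone, from -0.46 to -0.10. Within library numbers 1 and 2 alone it was called there, at -0.33 and -0.13 (edgeR adjusted p = 3.34e-05 and 0.0029). The parental call was lost without either parental sample (highest adjusted p = 0.145). IGF2BP2 mRNA rose in the IGF2BP2 knockout clones by 0.31 ± 0.03 (edgeR adjusted p = 3.93e-06), from 80.8 to 93.7 CPM in DMSO to 100 to 114 CPM in tunicamycin, without overlap (7.90% of genes were higher in this way). In parental cells its value was 0.15 (adjusted p = 0.146) and in IGF2BP3 knockout clones 0.08 (adjusted p = 0.262). With libraries numbered 2 alone these were called, at 0.22 and 0.12 (edgeR adjusted p = 0.000393 and 0.0108), and with those numbered 1 alone they were not, at 0.10 and 0.05 (edgeR adjusted p = 0.233 and 0.474). IGF2BP3 mRNA in the IGF2BP3 knockout clones had a value of 0.23, with an interval of 0.02 to 0.44, and was not called (edgeR adjusted p = 0.084). This value was positive in both libraries of every clone, from 0.05 to 0.34, and was called under 5 of 12 alternatives. CD44 fell in the IGF2BP3 knockout clones by 0.20 on the log2 scale (edgeR adjusted p = 0.00384), and its values of -0.22 in parental and -0.20 in IGF2BP2 knockout cells did not pass (adjusted p = 0.22 and 0.0885). Within library numbers 1 and 2 alone CD44 was called lower in all 3 genotypes, at -0.17 and -0.28 in parental cells (edgeR adjusted p = 0.0125 and 1.52e-07) and -0.15 and -0.23 in IGF2BP2 knockout clones (edgeR adjusted p = 0.0305 and 7.92e-11). The CD44 call was lost without clone E4, without a term for the line and in the fit over all 32 libraries (highest adjusted p = 0.193).

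The counts of called members were 2 of 9 in parental cells, 2 of 8 in IGF2BP3 knockout and 3 of 8 in IGF2BP2 knockout clones, where 26.8%, 33.8% and 40.1% of all genes were called, so the members' share was near the background. Without parental sample 1 or 2 the parental count was 0 and 1, and without E4 the IGF2BP3 knockout count was 1. In the main fit, with both library numbers and no replicate block, MYC was not called in any genotype. Its values were -0.08 in parental, -0.11 in IGF2BP3 knockout and -0.13 in IGF2BP2 knockout cells. The interval in parental cells reached from -0.44 to 0.29. With the replicate block MYC was called lower in both knockouts but not in parental cells. Without a filter on low counts it was called lower in the IGF2BP2 knockout clones (edgeR adjusted p = 0.0119). With libraries numbered 2 alone MYC was called lower in each genotype, at -0.18, -0.23 and -0.15 (edgeR adjusted p = 0.00122, 6.46e-06 and 2.7e-06). With libraries numbered 1 alone its values were 0.01, 0.01 and -0.10 (edgeR adjusted p = 0.932, 0.931 and 0.121). HMGA1 was not called in the main fit, at 0.13 in parental cells, 0.13 in IGF2BP3 knockout and 0.07 in IGF2BP2 knockout clones (edgeR adjusted p = 0.361, 0.218 and 0.488). With the replicate block HMGA1 was called higher in all 3 genotypes. Within each number alone HMGA1 was called higher in parental and IGF2BP3 knockout cells, and in number 2 alone in IGF2BP2 knockout clones. No member's response to tunicamycin was called as different between genotypes (0 of 9 members by edgeR and by DESeq2 in each of the 3 pairings, where 0.00% of genes were called). At an unadjusted p under 0.05 there was 1 member in each pairing. These were IGF2BP3 for IGF2BP3 knockout against parental cells (log2 difference 0.32 ± 0.13), IGF2BP2 for IGF2BP2 knockout against parental cells (0.16 ± 0.08) and IGF2BP2 for the 2 knockouts (-0.23 ± 0.06), each with an edgeR adjusted p of 1. At that unadjusted level 255, 213 and 271 genes were found.

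**Figure D5:**
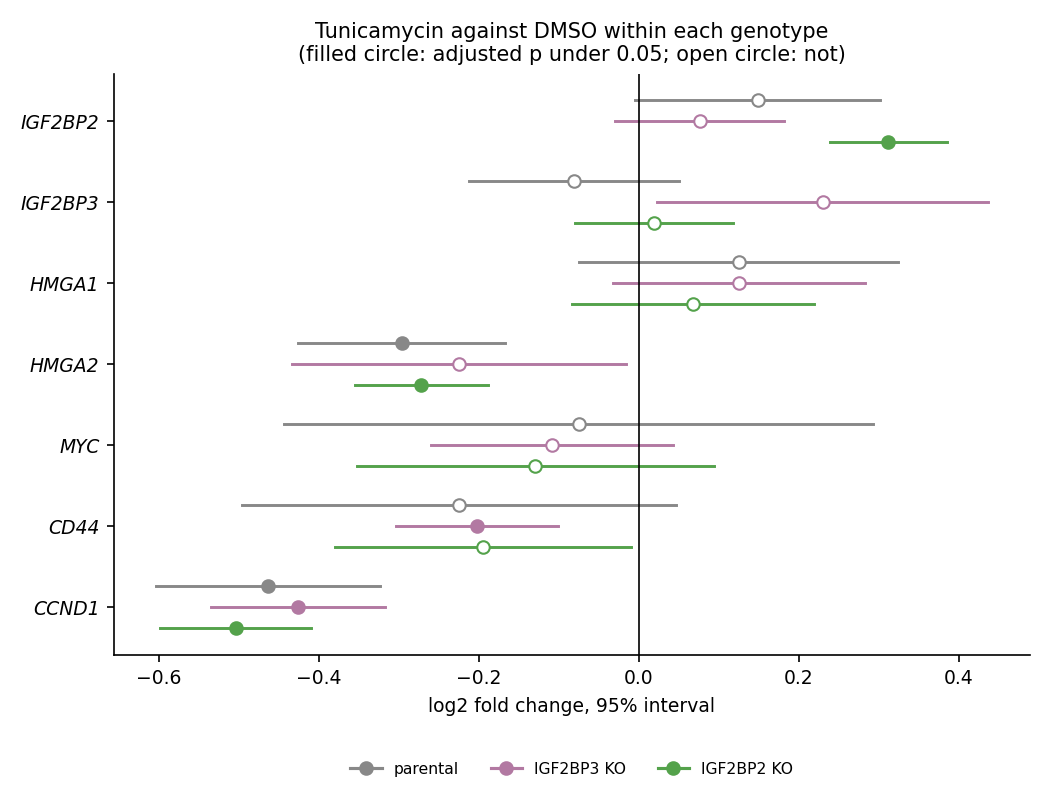
Log2 fold changes in tunicamycin against DMSO (x axis) of the 7 expressed members in parental cells (grey), IGF2BP3 knockout (purple) and IGF2BP2 knockout clones (green), with 95% intervals and filled circles for adjusted p under 0.05. CCND1 lies between -0.50 and -0.43 in the 3 genotypes, and IGF2BP2 is called higher in the IGF2BP2 knockout clones.

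Of 29 other mRNAs reported as IGF2BP targets, 28 were tested in DMSO, and 1 of them, the retrotransposon-derived PEG10, was called by edgeR in the IGF2BP3 knockout clones, where 1.61% of all genes were. DESeq2 called 2 there, beside 507 over all genes, and 4 had an unadjusted p under 0.05, beside 1994 of 14568 genes. Over the 6 genotype comparisons 3 to 7 of the list had an unadjusted p under 0.05 and 0 to 3 were called by DESeq2. From 690 of 14564 to 2073 of 14066 genes had such an unadjusted p. PEG10 had a mean of 21.5 ± 2.68 CPM in the IGF2BP3 knockout clones in DMSO against 31.2 ± 2.41 in parental cells. Its log2 fold change was -0.55 (edgeR adjusted p = 0.00405), and -0.60 in tunicamycin (edgeR adjusted p = 0.00437). Its values in the IGF2BP2 knockout clones were of like size, -0.51 in both treatments, and did not pass (edgeR adjusted p = 0.586 and 0.695). Between the 2 knockouts PEG10 differed by -0.03 and -0.10. Clones within each knockout genotype were also called as different in PEG10, where 7.05% (IGF2BP3) and 24.6% (IGF2BP2) of genes were. The median of the list in the IGF2BP3 knockout clones in DMSO was 0.06, beside 0.003 over all genes tested.

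The partners of the MYC coding-region complex (HNRNPU, SYNCRIP, YBX1 and DHX9) that act with IGF2BP1 had 0 calls by edgeR and 0 by DESeq2 in the 6 genotype comparisons, with 0 to 1 genes at an unadjusted p under 0.05. The LIN28 and let-7 pathway list had 0 calls by edgeR, 0 to 1 by DESeq2 and 0 to 2 genes at an unadjusted p under 0.05 among its 10 tested genes. MYC partners and target genes had 0 calls by edgeR, 0 to 2 by DESeq2 and 1 to 2 at an unadjusted p under 0.05 among 15. Over all genes, 690 of 14564 to 2073 of 14066 had an unadjusted p under 0.05 in these comparisons. DESeq2 called 507 genes in IGF2BP3 knockout against parental cells in DMSO and 354 between the knockouts in DMSO. Among the G1 cyclins, kinases and inhibitors, CDKN1A, which encodes the cyclin-dependent kinase inhibitor p21, was higher in the IGF2BP3 knockout clones in DMSO (171 ± 22.8 against 122 ± 5.7 CPM, log2 fold change 0.48, edgeR adjusted p = 0.0137). In the IGF2BP2 knockout clones it was 170 ± 33.2 CPM, with a log2 fold change of 0.47 that did not pass (edgeR adjusted p = 0.983). CDKN2B, another inhibitor of the cyclin D kinases, was lower in the IGF2BP3 knockout clones in tunicamycin (-0.74, edgeR adjusted p = 0.0497). Both CDKN1A and CDKN2B were also called as different between the clones within each knockout genotype, where 7.05% (IGF2BP3) and 24.6% (IGF2BP2) of genes were.

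With tunicamycin, the published IGF2BP targets and the lists around CCND1, MYC and IGF signalling had called genes in both directions in all 3 genotypes. The LIN28 and let-7 list had 0 higher and 2 lower of 10 tested genes in parental cells, beside 12.5% and 14.3% of all genes. It had 2 higher and 3 lower in IGF2BP3 knockout clones (16.2% and 17.6% of genes). In IGF2BP2 knockout clones it had 2 higher and 2 lower (19.2% and 20.9% of genes). The partners of the MYC coding-region complex had 0 calls by edgeR and by DESeq2 in each genotype, with 0 to 1 genes at an unadjusted p under 0.05. Over all genes, 5256 of 14398 in parental cells to 6681 of 14145 in IGF2BP2 knockout clones had such an unadjusted p. Around CCND1, the kinase inhibitors CDKN1A, CDKN1B and CDKN2B rose, by 0.62, 0.60 and 1.24 on the log2 scale in parental cells, and CCNE1, cyclin E1, fell by 0.77. Of the 15 tested genes of that list, 5 rose and 3 fell in parental cells, where 12.5% of all genes rose and 14.3% fell. Of the MYC list, MXD1 and MNT rose by 3.07 and 1.27 in parental cells, by 2.63 and 1.20 in IGF2BP3 knockout and by 2.65 and 1.19 in IGF2BP2 knockout clones. MAX was also called higher in all 3 genotypes, while MGA and LDHA of the same list were called lower in each. Of the 15 tested genes of the MYC list, 5 rose and 2 fell in parental cells, beside 12.5% and 14.3% of all genes. Of 27 tested IGF2BP targets 3 rose and 7 fell in parental cells, beside the same 12.5% and 14.3% of all genes. Among these targets VEGFA had the largest rise, at 1.41. Among insulin and IGF signalling genes, IRS1 fell by 0.67 and IRS2 rose by 0.60 in parental cells, and both were called in the same direction in both knockouts. DICER1 and AGO1, of the microRNA pathway, fell in all 3 genotypes, by 0.42 and 0.26 in parental cells.

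As a description, the genes whose pattern was most like a member's were found over the 16 means of line and treatment, among 12708 genes, by Pearson r of log2 CPM. These points share genotype, line, treatment and depth, and each is a mean over both library numbers. For HMGA2 they were POGK (r = 0.934), PARM1 (0.926) and PLEKHG4 (0.89), and for CCND1 CACUL1 (0.979), NFE2L3 (0.974) and TMEM14A (0.968). For MYC they were RAB26 (0.917), AHCY (0.914) and SLC19A2 (0.909), and for CD44 CYB5B (0.935), HS3ST1 (0.912) and TMEM33 (0.897). For HMGA1 they were PHLDA2 (0.917), SLC16A5 (0.899) and APRT (0.892). For IGF2BP3 they were CNIH1 (0.896), NFATC2 (0.891) and PPP2R3A (0.888), and for IGF2BP2 CYSTM1 (0.885), EXOSC5 (0.838) and RYR1 (0.82). Among the members, MYC and CD44 had the highest r, 0.86, followed by IGF2BP3 with MYC at 0.744 and with HMGA2 at 0.735. IGF2BP2 with HMGA2 had the lowest, -0.599. IGF2BP3 and IGF2BP2 were each edited in 3 of the 8 lines, so their r values also carry the genotype differences given above.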

How the data were processed

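The deposited table holds raw counts per gene and library, as whole numbers. The submitters' processing notes name STAR 2.7.5c and hg38; the counting tool, its annotation and its use of strand are not given in the sources used here. Libraries were poly(A)-selected with a directional kit, per the labels' protocols. Groups came from the titles. From the deposited counts, edgeR 4.0.16 (R 4.3.3) with TMM normalisation, filterByExpr and the quasi-likelihood test was fitted to the libraries compared, with Benjamini-Hochberg adjustment over all genes tested and a threshold of 0.05. The line was a covariate in treatment and interaction fits, and treatment in fits between lines. Intervals are 95% and SEs follow from the F statistic. Alternatives were DESeq2 1.42.0, its size factors in edgeR, no filter, a mean of at least 1 CPM, all 32 libraries in 1 fit, each library number alone, summing the counts of a line, dropping the line term, a replicate block, each line left out, and the clone G6 controls left out. Duplicate libraries were looked for by chi-square tests of counts (4.59 to 25.2 per degree of freedom over 16 pairs), and none was found. The code was tested on simulated data. The members and lists were chosen with earlier results of these data known. Members are always named, list genes only where called (at most 3 per direction), except the complex partners and values given for contrast. Separate cultures are not stated for the 2 libraries of a line, so p-values may partly measure technical spread.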

Additional observations from a re-analysis of the deposited data

How the results depend on the processing

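Over 1666 recomputed member values, 63 lost and 58 gained a call and no called value changed sign; 83 values called in neither fit did. Called members in IGF2BP3 knockout against parental cells in DMSO numbered 2, but 4 without a filter, 0 with libraries numbered 2 alone, 1 with summed counts and 0 to 3 when lines were left out. In tunicamycin 1 became 2 with the replicate block, without a filter, with DESeq2 and with all 32 libraries, 0 with a mean of at least 1 CPM and with libraries numbered 2 alone, and 0 to 1 when lines were left out. For IGF2BP2 knockout against parental cells in tunicamycin 1 became 0 with libraries numbered 1 alone, with those numbered 2 alone and with summed counts. Between the knockouts 3 became 1 in DMSO with either number alone or summed counts, and in tunicamycin 1 with libraries numbered 2 alone or summed counts and 1 to 4 when lines were left out. For tunicamycin, parental cells went from 2 to 5 with the replicate block, 4 and 6 within numbers 1 and 2, and 0 to 6 with a parental sample or library number left out. IGF2BP3 knockout clones went from 2 to 6 with the replicate block, 4 without a filter, 4 and 7 within numbers, 1 without the line term and 1 to 3 with lines left out. IGF2BP2 knockout clones went from 3 to 6 with the replicate block, 5 without a filter and 6 with libraries numbered 2 alone. Counts between lines went from 4 to between 1 and 4 for IGF2BP3 knockout and from 7 to between 3 and 5 for IGF2BP2 knockout clones with lines left out. The causes were not tested. Fewer libraries enter the within-number, summed and left-out fits. Calls over all genes moved between these settings as well, as given below.

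Over all genes, calls in IGF2BP3 knockout against parental cells ranged from 13 to 513 around 235 in DMSO and from 8 to 333 around 105 in tunicamycin, with the highest from the replicate block. Those in IGF2BP2 knockout against parental cells rose from 2 to 47 in DMSO and from 1 to 46 in tunicamycin without clone G6. Between the knockouts they ranged from 1 to 354 around 84 in DMSO and from 1 to 423 around 55 in tunicamycin. For tunicamycin against DMSO the range was 970 to 5989 around 3854 in parental cells. It was 3174 to 6602 around 4820 in IGF2BP3 knockout and 4045 to 7062 around 5678 in IGF2BP2 knockout clones. Between lines it was 196 to 2058 around 1062 and 1550 to 5935 around 3683 in the same order. The library numbers were examined as a pairing: over 120 pairs of same-numbered libraries, r between their deviations from the mean ran from 0.0617 to 0.684, with a median of 0.482. Of these pairs 118 exceeded 0.1 and 2 did not. The requirement that every pair exceed 0.1 was therefore not met, and the numbers were not used as a pairing. The shift between library numbers thus stayed in the spread of the main fits, which hold no term for it. With the replicate block, HMGA2 in IGF2BP3 knockout against parental cells was -0.54 in DMSO (edgeR adjusted p = 3.71e-05) and -0.48 in tunicamycin (edgeR adjusted p = 0.000707), and CD44 in DMSO was -0.38 (edgeR adjusted p = 0.0195).

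At these depths IGF2, IGF2BP1 and LIN28B are limited by their counts.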

Other observations

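H19, a noncoding RNA expressed beside IGF2, differed between the knockout genotypes in DMSO while IGF2 was not called. It was at 0.932 ± 0.208 CPM (SD, n = 6) in IGF2BP3 knockout clones, 0.355 ± 0.0897 CPM (SD, n = 6) in IGF2BP2 knockout clones and 0.565 ± 0.164 CPM (SD, n = 4) in parental cells. The log2 difference between the knockouts was 1.39 ± 0.25 (edgeR adjusted p = 0.0207), at a level near 1 CPM or below. IGF2 was called only between the IGF2BP2 knockout clones, with a largest log2 difference of 1.63 (edgeR adjusted p = 0.0273), from 0.732 ± 0.223 CPM in B7 to 0.233 ± 0.111 CPM in F6. Without clone F6 the difference was 0.58 and the call was lost (edgeR adjusted p = 0.376).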
